A study of Mus musculus with 6 samples.

Results

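The genes described here belong to the liver X receptor (LXR) pathway of cholesterol efflux. They are 10 genes: the receptor genes Nr1h2 and Nr1h3, the apolipoprotein genes Apoc1, Apoc2 and Apoe, the phospholipid transfer protein gene Pltp, the exporter genes Abca1 and Abcg1, and the LXR targets Mylip and Lpcat3. They were matched by symbol, and 9 of the 10 had a row among the 16111 annotated genes. All 9 were among the 11408 genes tested. The list was selected on measured values, since the expression differences between the same 6 libraries were known when it was drawn up. The fold changes and p-values below therefore describe these genes and are no independent test of them.

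RNA was sequenced from 6 cultures of fetal liver macrophages of C57BL/6 RCC mice, 3 wild-type and 3 AhRR-/-, which lack the aryl hydrocarbon receptor repressor encoded by Ahrr. Each culture carries a mouse number of its own within its genotype. Cells of both genotypes were taken from fetuses at E13.5 and grown for 5 weeks with 2% GM-CSF, a myeloid growth factor, and the non-adherent cells were sequenced. How the Ahrr allele was made is not given in the sources used here. P-values measure the spread between these libraries.

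LXRs are nuclear receptors that sense oxysterols, the oxidised forms of cholesterol. Paired with a retinoid X receptor, they switch on genes that carry cholesterol out of the macrophage and onto lipoproteins. Abca1, Abcg1 and the genes of the Apoe cluster are among their best known macrophage targets.

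Total counts per library ran from 3556106 (AhRR-/- replicate 1) to 41668336 (AhRR-/- replicate 2), so low genes were measured least precisely in AhRR-/- replicate 1. Levels are given as CPM, the counts of a gene scaled to the library total. In wild-type replicate 2 the ribosomal RNA gene CT010467.1 took 52793 CPM, against at most 679 CPM elsewhere. CPM are not corrected for this, so other genes read low in that library. The edgeR fold changes use TMM scaling between libraries. Ahrr itself had 4.29 to 5.32 CPM in wild-type libraries and 1.21 to 2.57 CPM in AhRR-/- libraries (log2FC -1.21, SE 0.26, adjusted p 0.0151 in edgeR), where log2FC is the log2 fold change of AhRR-/- over wild-type, so reads of Ahrr were lower but present in all 3 AhRR-/- libraries. All 10 listed macrophage markers had a row, with a summed level of 21906 to 27186 CPM in wild-type and 15342 to 22797 CPM in AhRR-/- libraries. Most of this sum was Lyz2, with 17419 to 22740 CPM in wild-type and 12440 to 19165 CPM in AhRR-/- libraries. Lyz2 did not pass (log2FC -0.46, SE 0.17, adjusted p 0.0926 in edgeR). Among the 10 markers Cd14 (log2FC -1.66, SE 0.23, adjusted p 0.00329 in edgeR) and Csf1r (log2FC -0.65, SE 0.17, adjusted p 0.0304 in edgeR) fell, and Itgax (log2FC 1.70, SE 0.15, adjusted p 6.96e-04 in edgeR) rose. In bulk RNA, fewer cells of a type and less RNA per cell cannot be told apart.

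Hepatocytes of the fetal liver also make apolipoproteins, so markers of other cells were read as well. Of 10 hepatocyte markers 2 had a row, Afp and Apoa2, and their sum was 0.159 to 0.841 CPM in wild-type and 0.809 to 1.13 CPM in AhRR-/- libraries. Alb, Ttr, Apoa1 and Apob were among those without a row. Fibroblast markers (0 of 5) and mast cell markers (0 of 6) had no row, and the sums for neutrophil and endothelial markers reached at most 2.38 and 0.562 CPM. The erythroid sum, from 3 of 7 markers, was 13.49 to 23.0 CPM in wild-type and 2.86 to 4.96 CPM in AhRR-/- libraries, nearly all of it Epor (log2FC -2.44, SE 0.25, adjusted p 0.00113 in edgeR), with the globin genes Hba-a1, Hbb-bt and Hbb-bs without a row. The dendritic cell sum, from 3 of 5 markers, was 57.6 to 62.1 CPM in wild-type and 72.0 to 93.2 CPM in AhRR-/- libraries. Its rise was that of Clec9a (log2FC 0.49, SE 0.12, adjusted p 0.0256 in edgeR), whereas Zbtb46 had 5.01 to 5.88 CPM in wild-type and 4.15 to 4.92 CPM in AhRR-/- libraries without passing (log2FC -0.32, SE 0.18, adjusted p 0.228 in edgeR), Xcr1 stayed at or under 0.420 CPM, and Flt3 and Ccr7 had no row. The part of the shifts in the macrophage markers, Epor and Clec9a in the results below was not tested.

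At an edgeR adjusted p under 0.05, 6 of the 9 genes were lower in AhRR-/- cells, 1 was higher and 2 did not pass. Apoc1, Pltp, Abca1, Nr1h3, Mylip and Nr1h2 fell, and Abcg1 rose. Apoe and Lpcat3 did not pass. Over all tested genes 19.6% passed, 9.95% lower and 9.62% higher. The fall was at least 2-fold for Apoc1, Pltp and Abca1, a size reached by 2.6% of tested genes in that direction and by 1.91% in the other. The libraries of the 2 genotypes did not overlap for 7 of the 9 genes, 6 lower and 1 higher, and for 36.6% of tested genes (12.8% lower, 23.9% higher). These counts are in CPM, where wild-type replicate 2 reads low, so they lean towards higher in AhRR-/- libraries. The median log2FC was -0.65 over the 9 genes and 0.01 over all tested genes. Nothing is read from these shares, because the same comparison chose the list.

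**Figure D1:**
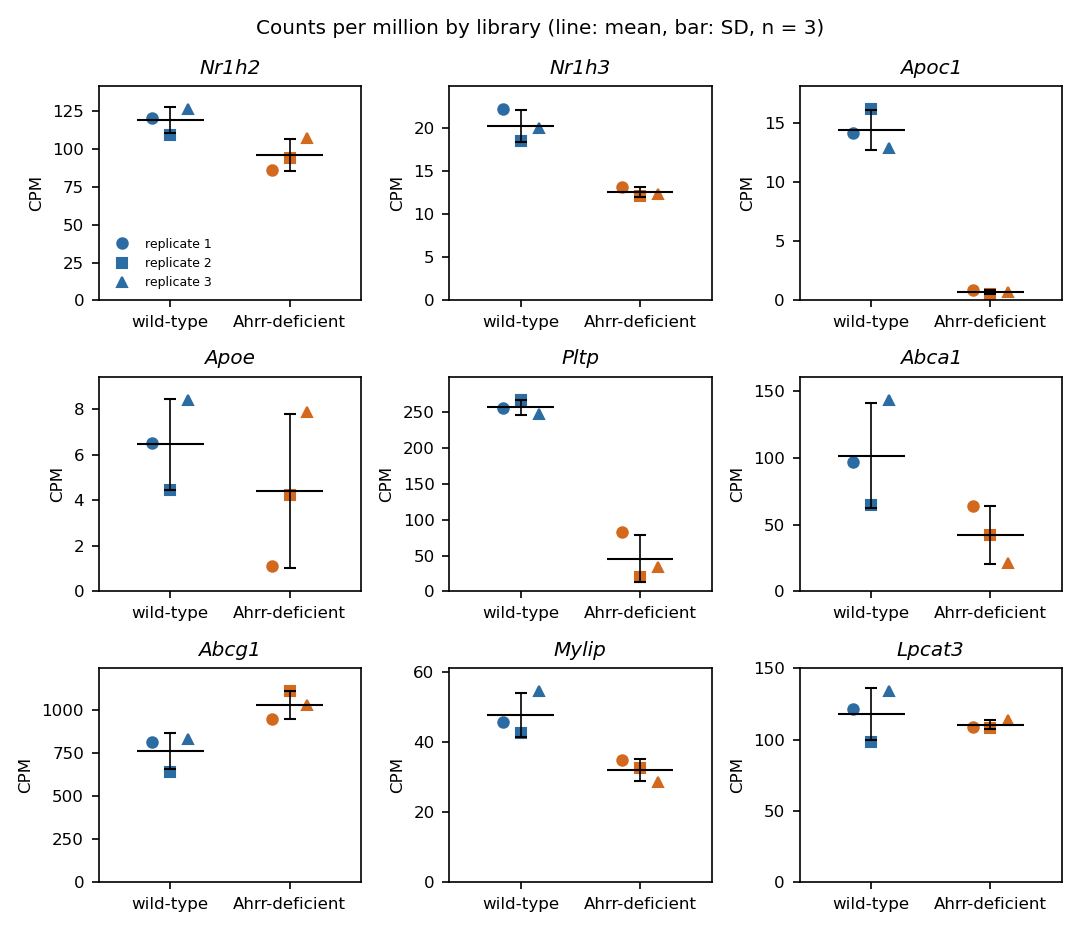
CPM of the 9 genes in 3 wild-type and 3 AhRR-/- libraries (y axes in CPM), with the mean and SD of each group. The groups overlap for Apoe and Lpcat3, and Apoc1 goes from between 12.9 and 16.2 CPM to between 0.552 and 0.844 CPM.

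Promoter windows, from 250 bases before to 50 bases after a start site, were found in the RefSeq table (GRCm38.p6) for 8 of the 10 genes. The windows of Abca1, Pltp and Mylip are shown because these members fell and their windows hold letters of interest. Capitals mark GCGTG on either strand, the core letters bound by the aryl hydrocarbon receptor, and the closest match on either strand to DR4, the LXR element made of 2 copies of AGGTCA with 4 bases between them. Sequences run 5′ to 3′ along the gene.
Abca1, chr4:53159846-53160145, minus strand: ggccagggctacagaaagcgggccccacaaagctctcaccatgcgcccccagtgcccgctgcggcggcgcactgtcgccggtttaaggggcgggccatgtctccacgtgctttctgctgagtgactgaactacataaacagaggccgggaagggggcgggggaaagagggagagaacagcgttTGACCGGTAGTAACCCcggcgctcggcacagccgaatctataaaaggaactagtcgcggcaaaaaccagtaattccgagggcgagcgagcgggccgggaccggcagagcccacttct
Pltp, chr2:164857659-164857958, minus strand: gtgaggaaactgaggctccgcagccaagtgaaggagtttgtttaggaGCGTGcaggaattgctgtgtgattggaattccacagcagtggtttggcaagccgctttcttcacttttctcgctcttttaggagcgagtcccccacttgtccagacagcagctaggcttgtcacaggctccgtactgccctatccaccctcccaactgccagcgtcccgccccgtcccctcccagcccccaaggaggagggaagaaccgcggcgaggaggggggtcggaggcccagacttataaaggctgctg
Mylip, chr13:45389492-45389791, plus strand: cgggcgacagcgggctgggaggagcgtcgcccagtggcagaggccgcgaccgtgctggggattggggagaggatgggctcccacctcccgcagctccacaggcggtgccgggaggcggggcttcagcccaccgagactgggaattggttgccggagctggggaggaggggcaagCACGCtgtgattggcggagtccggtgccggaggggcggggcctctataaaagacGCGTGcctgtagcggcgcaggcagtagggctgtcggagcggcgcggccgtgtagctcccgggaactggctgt
Among the 11 windows of these 8 genes, DR4 with at most 3 mismatches occurred in 1, that of Abca1, against 21.9% of all 32851 windows. With at most 2 mismatches it occurred in 0 of them, against 3.02% of all, and the limit of 3 was chosen after seeing the data. GCGTG occurred in 3 of the 11, those of Pltp, Mylip and Lpcat3, against 32.4% of all windows. The marked stretches do not overlap. A match here is a run of letters, and binding to it was not measured in these data.

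Both receptor genes fell. Nr1h2 encodes LXRβ, the widely expressed form (chromosome 7, 44549616 to 44553951, minus strand, GRCm38). Wild-type replicates 1, 2 and 3 had 121, 109.7 and 127 CPM of it, and the AhRR-/- replicates had 86.3, 94.5 and 107 CPM. The groups were separate, with a narrow gap in CPM between 107 and 109.7. The latter is wild-type replicate 2, whose CPM read low. The difference was modest (log2FC -0.38, SE 0.09, adjusted p 0.0197 in edgeR) and passed in 9 of 16 alternatives, not without wild-type replicate 1, 2 or 3 or AhRR-/- replicate 2 (edgeR adjusted p 0.0673 to 0.0883 with any of these left out). With offsets for GC content the log2FC was -0.18 (edgeR adjusted p 0.106).

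Nr1h3 encodes LXRα, the form enriched in liver, fat and macrophages (chromosome 2, 91184061 to 91202834, minus strand). Its levels were 22.2, 18.6 and 20.04 CPM in the wild-type replicates and 13.2, 12.2 and 12.3 CPM in the AhRR-/- replicates. All 3 AhRR-/- values lay close together and under the lowest wild-type value. The means were 20.3 ± 1.85 and 12.6 ± 0.563 CPM (SD, n = 3; log2FC -0.80, SE 0.11, adjusted p 0.00310 in edgeR), and the call held in 16 of 16 alternatives. Per kilobase of exon, the mean wild-type level was 35.5 CPM for Nr1h2 and 8.06 CPM for Nr1h3. Within libraries, the ratio of Nr1h2 to Nr1h3 per kilobase was 4.08, 4.43 and 4.74 in wild-type replicates 1, 2 and 3 and 4.90, 5.83 and 6.52 in the AhRR-/- replicates, with no overlap.

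Of 12 listed partners and coregulators of LXR 11 were tested, with 2 lower, 0 higher and a median log2FC of -0.16. The share lower among all tested genes was 9.95%, and the share higher 9.62%. At an unadjusted p under 0.05 edgeR gave 3 lower and 0 higher, and DESeq2 gave 2 lower and 0 higher after adjustment. Rxrb, a retinoid X receptor gene, fell from 72.4 ± 2.12 to 58.4 ± 6.59 CPM (SD, n = 3; log2FC -0.38, SE 0.10, adjusted p 0.0253 in edgeR), a call kept in 9 of 16 alternatives. With GC offsets the log2FC of Rxrb was -0.17 (edgeR adjusted p 0.176). Ncoa1, a coactivator gene, fell too (log2FC -0.39, SE 0.11, adjusted p 0.0359 in edgeR; 10 of 16 alternatives). Rxra had 138 to 168 CPM in wild-type and 161 to 199.7 CPM in AhRR-/- libraries and did not pass (log2FC 0.13, SE 0.09, adjusted p 0.346 in edgeR). The lower genes numbered 0, 0 and 0 without wild-type replicate 1, 2 or 3 and 5, 0 and 1 without AhRR-/- replicate 1, 2 or 3. With GC offsets 1 was higher.

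The largest fall among the members was in the apolipoprotein cluster. Apoc1 encodes a small apolipoprotein that hinders lipoprotein uptake and lipid transfer (chromosome 7, 19689481 to 19692660, minus strand). Wild-type replicates 1, 2 and 3 held 310, 102 and 92 counts of it, or 14.1, 16.2 and 12.9 CPM. The AhRR-/- replicates held 3, 23 and 7 counts, or 0.844, 0.552 and 0.708 CPM. Every wild-type library was far above every AhRR-/- library. For the 3 counts of AhRR-/- replicate 1 the exact 95% Poisson interval, which covers counting error only, was 0.174 to 2.47 CPM, and the lowest wild-type bound was 10.4 CPM. The means were 14.4 ± 1.67 and 0.701 ± 0.146 CPM (SD, n = 3), a 24.6-fold fall (log2FC -4.62, SE 0.24, adjusted p 1.44e-04 in edgeR). The call held in 16 of 16 alternatives, with log2FC -4.72 to -4.32.

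Apoe, the next gene along the chromosome (chromosome 7, 19696109 to 19699188, minus strand), encodes the apolipoprotein that macrophages secrete to take up exported cholesterol. Its wild-type counts were 143, 28 and 60 for replicates 1, 2 and 3, which is 6.52, 4.44 and 8.41 CPM. Its AhRR-/- counts were 4, 176 and 78, or 1.125, 4.22 and 7.89 CPM. The groups overlapped, and AhRR-/- replicate 1, with 4 counts and a Poisson interval of 0.306 to 2.88 CPM, was the lowest. Apoe did not pass (log2FC -0.48, SE 0.39, adjusted p 0.410 in edgeR), and the approximate 95% interval of its log2FC was -1.26 to 0.29. It passed in 0 of 16 alternatives, where the log2FC was -0.98 to -0.30. Whether its change differs from that of Apoc1 was not tested as such, but the intervals of the 2 genes (-5.10 to -4.15 for Apoc1) lie apart.

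Apoc2 encodes the activator of lipoprotein lipase (chromosome 7, 19671579 to 19677941, minus strand) and had no row by symbol or by identifier. In GENCODE 79.5% of its exon bases lie also in exons of Gm44805 on the same strand, and Gm44805 had no row either. How reads in shared exons were assigned is not given in the sources used here, so its level was not analysed here.

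Apoc4, another small apolipoprotein gene, lies between Apoc2 and Apoc1. Its counts were 45, 10 and 20 for wild-type replicates 1, 2 and 3 and 0 for each AhRR-/- library. Against the mean floor of 3 counts per AhRR-/- library, 0.406 CPM, the mean in wild-type libraries, 2.15 ± 0.613 CPM over 3 (SD), stood at least 5.28-fold higher (edgeR adjusted p 0.00158). Of its exon bases 4.69% are shared with Gm44805.

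**Figure D2:**
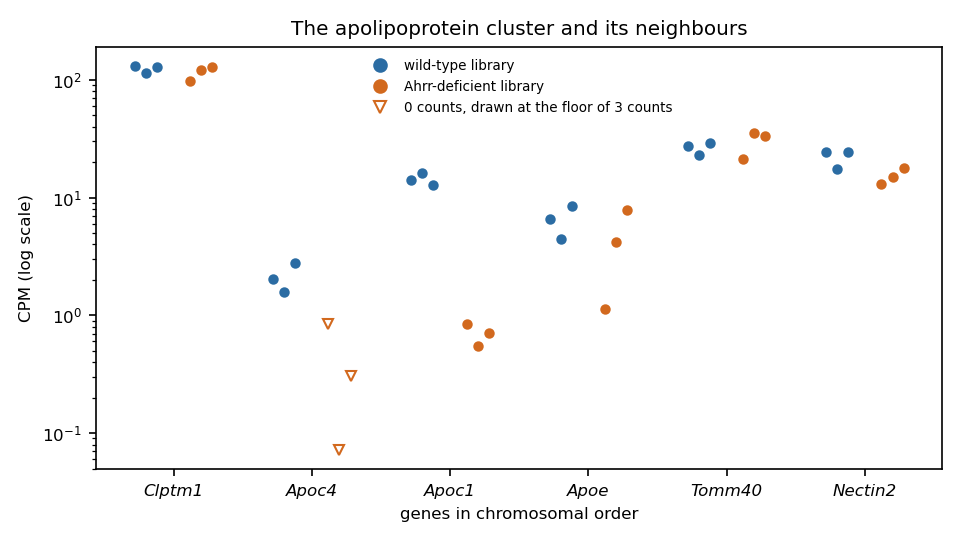
CPM (log axis) of genes of the Apoe cluster in chromosomal order, with 1 point per library and the floor of 3 counts for libraries at 0 counts. Apoc4 and Apoc1 separate the genotypes, while Apoe beside them does not.

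Some neighbours of the cluster fell as well, by less than 2-fold apart from Apoc4. Of 11 genes listed around the cluster 9 were tested, with 4 lower and 0 higher, where 9.95% of all tested genes were lower. The list's median log2FC was -0.17, the same with Apoc4 at its bound. At an unadjusted p under 0.05 edgeR gave 0 higher, and DESeq2 gave 2 lower and 0 higher. Besides Apoc4, the adhesion gene Nectin2 (log2FC -0.59, SE 0.14, adjusted p 0.0198 in edgeR), the NF-kB subunit gene Relb (log2FC -0.39, SE 0.10, adjusted p 0.0327 in edgeR) and Clasrp (log2FC -0.36, SE 0.09, adjusted p 0.0245 in edgeR) fell. Their calls were kept in 11 of 16, 6 of 16 and 7 of 16 alternatives. The lower genes numbered 1, 2 and 1 without wild-type replicate 1, 2 or 3 and 4, 2 and 3 without AhRR-/- replicate 1, 2 or 3. Without AhRR-/- replicate 1, 1 was higher. Tomm40, the mitochondrial import gene on the other side of Apoe, had 22.9 to 29.1 CPM in wild-type and 21.1 to 35.6 CPM in AhRR-/- libraries (log2FC 0.16, SE 0.16, adjusted p 0.497 in edgeR).

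Apolipoprotein genes, genes only named after apolipoproteins (such as Apool), and related genes of editing, uptake or remodelling were read from a further list. Of 17 listed genes 9 had a row and 4 were tested (Apoc4, Apobec1, Apobr and Apool), with 2 lower, 0 higher and a median log2FC of -0.34. A share of 9.95% of all tested genes was lower. At an unadjusted p under 0.05 edgeR gave 0 higher, and so did DESeq2 after adjustment. The lower genes numbered 1, 1 and 1 without wild-type replicate 1, 2 or 3 and 2, 1 and 1 without AhRR-/- replicate 1, 2 or 3. The lower genes were Apoc4, which lies in the cluster, and Apobec1, which encodes an enzyme that edits Apob mRNA and is no apolipoprotein gene. Apobec1 fell from 304 ± 25.1 to 213 ± 56.4 CPM (SD, n = 3; log2FC -0.59, SE 0.17, adjusted p 0.0404 in edgeR), a call kept in 11 of 16 alternatives.

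Pltp encodes the phospholipid transfer protein, which moves phospholipid between lipoproteins (chromosome 2, 164839518 to 164857711, minus strand). It had 256, 267 and 247 CPM in wild-type replicates 1, 2 and 3. The AhRR-/- replicates had 82.7, 19.9 and 34.5 CPM. The wild-type values were nearly level, and the AhRR-/- values were all far lower but spread widely, with replicate 1 the highest. The means were 256 ± 10.1 and 45.7 ± 32.9 CPM (SD, n = 3), a 6.52-fold fall (log2FC -2.71, SE 0.43, adjusted p 0.00519 in edgeR), held in 16 of 16 alternatives. Without AhRR-/- replicate 1 the fall was 10.5-fold. Ctsa, a lysosomal protease gene on the opposite strand, shares 19.3% of the exon bases of Pltp, and had 1766 to 1893 CPM in wild-type and 1408 to 1556 CPM in AhRR-/- libraries. Reads of the shared bases cannot be told apart without strand.

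The exporters went opposite ways. Abca1 loads cholesterol and phospholipid onto lipid-poor apolipoproteins (chromosome 4, 53030787 to 53159895, minus strand). Its levels were 97.3, 64.9 and 144 CPM in wild-type replicates 1, 2 and 3 and 64.4, 42.2 and 21.03 CPM in the AhRR-/- replicates. The groups did not overlap, but in CPM wild-type replicate 2, which reads low, and AhRR-/- replicate 1 almost met. The means were 102 ± 39.6 and 42.5 ± 21.7 CPM (SD, n = 3), a 2.61-fold fall (log2FC -1.38, SE 0.36, adjusted p 0.0281 in edgeR). The call was lost in 6 of 16 alternatives, among them DESeq2 (adjusted p 0.0582) and the removal of wild-type replicate 1 or 3 or AhRR-/- replicate 2 or 3 (edgeR adjusted p 0.0677 to 0.0939).

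Abcg1 passes cholesterol to high-density lipoprotein (chromosome 17, 31057675 to 31117988, plus strand). Wild-type replicates 1, 2 and 3 had 812, 641 and 828 CPM, and the AhRR-/- replicates had 944, 1109 and 1029 CPM. Each AhRR-/- value was above each wild-type value. The means were 760.0 ± 104 and 1027 ± 82.5 CPM (SD, n = 3), and the call was at the edge of the threshold (log2FC 0.37, SE 0.11, adjusted p 0.0497 in edgeR). The log2FC was positive in all 16 alternatives (0.30 to 0.42), but the call was lost in 12 of them, RLE scaling (edgeR adjusted p 0.0514) and the removal of any library but AhRR-/- replicate 1 included.

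Within a library, the ratio of Abcg1 to Abca1 does not depend on scaling between libraries. Per kilobase of exon it was 11.8, 14.0 and 8.19 in wild-type replicates 1, 2 and 3 and 20.8, 37.3 and 69.5 in the AhRR-/- replicates. Each AhRR-/- library had a higher ratio than each wild-type library, and the means were 11.3 ± 2.94 and 42.5 ± 24.8 (SD, n = 3).

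**Figure D3:**
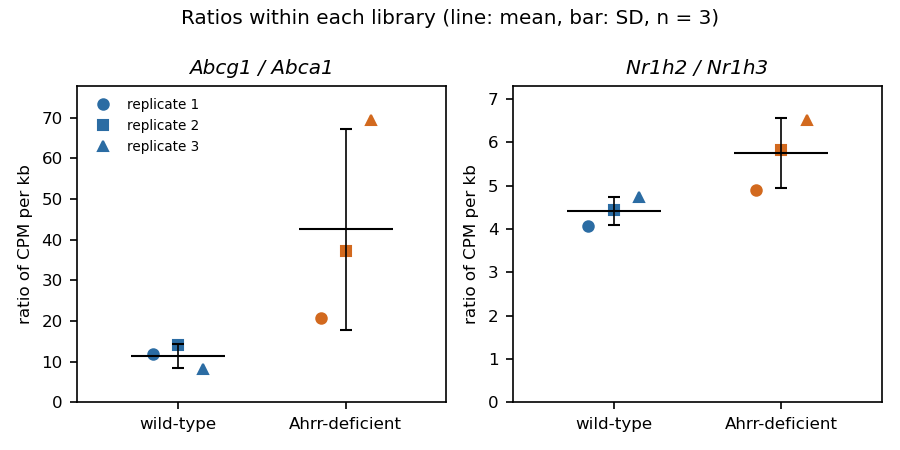
Ratios of CPM per kilobase of exon within each library, with mean and SD over the 3 libraries of a genotype. The Abcg1 to Abca1 ratio is at most 14.0 in wild-type and at least 20.8 in AhRR-/- libraries.

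Mylip encodes a ubiquitin ligase that limits lipoprotein uptake (chromosome 13, 45389742 to 45412022, plus strand). It had 45.8, 42.5 and 54.6 CPM in wild-type replicates 1, 2 and 3 and 34.9, 32.7 and 28.6 CPM in the AhRR-/- replicates. The groups were separate, and the fall (log2FC -0.65, SE 0.11, adjusted p 0.00637 in edgeR) held in 16 of 16 alternatives.

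Lpcat3 encodes an acyltransferase that puts polyunsaturated chains into phospholipids (chromosome 6, 124663027 to 124704418, plus strand). It had 122, 98.4 and 134 CPM in wild-type replicates 1, 2 and 3. The AhRR-/- replicates had 109, 108 and 114 CPM, inside the wild-type range in CPM. The low end of that range was wild-type replicate 2, whose CPM read low. It did not pass (log2FC -0.17, SE 0.09, adjusted p 0.208 in edgeR), and the approximate 95% interval of its log2FC was -0.34 to 0.01. Emg1, on the opposite strand, shares 10.2% of its exon bases and had 30.0 to 33.2 and 34.0 to 45.0 CPM. Of 8 related acyltransferase genes 5 were tested, with 1 higher, 1 lower and a median log2FC of -0.00345. Among all tested genes 9.62% were higher and 9.95% lower. The higher genes numbered 1, 1 and 1 without wild-type replicate 1, 2 or 3 and 1, 1 and 1 without AhRR-/- replicate 1, 2 or 3, and the lower genes 0, 1 and 1 without wild-type replicate 1, 2 or 3 and 1, 0 and 1 without AhRR-/- replicate 1, 2 or 3. Lpgat1 rose (log2FC 0.55, SE 0.09, adjusted p 0.00594 in edgeR) and Agpat3 fell (log2FC -0.44, SE 0.09, adjusted p 0.0137 in edgeR).

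**Figure D4:**
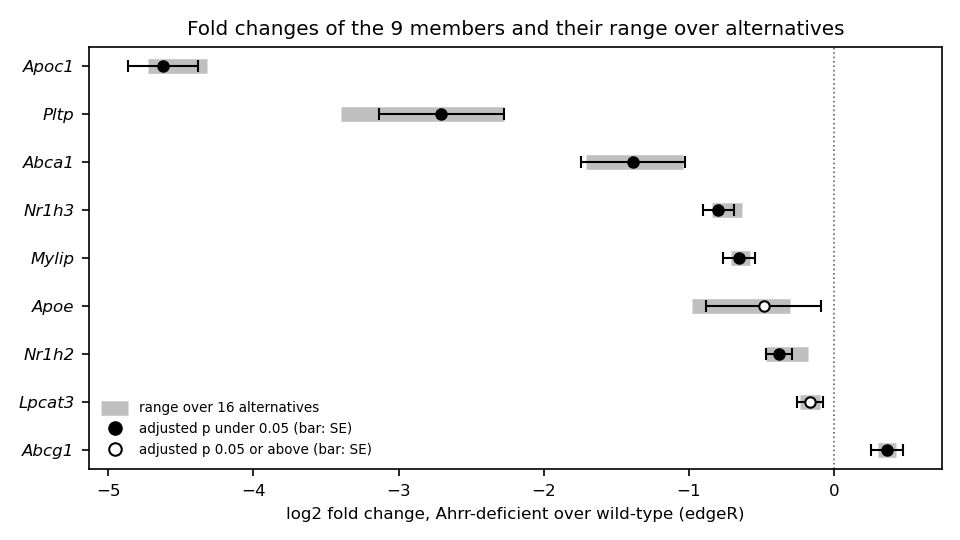
log2FC of the 9 genes, AhRR-/- over wild-type, from edgeR, with SE bars and the range over alternatives. Apoc1 at -4.62 and Pltp at -2.71 lie farthest from 0, and Abcg1 is the gene above 0.

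Per kilobase of exon, the mean wild-type levels ran from Abcg1 (104 CPM) and Pltp (100.1) through Lpcat3 (36.1), Nr1h2 (35.5), Apoc1 (19.4), Mylip (14.7), Abca1 (9.84) and Nr1h3 (8.06) to Apoe (3.02). Neighbours whose libraries overlapped were Abcg1 and Pltp, Lpcat3 and Nr1h2, Mylip and Abca1, and Abca1 and Nr1h3. In AhRR-/- cells Abcg1 was again the highest (141 CPM per kilobase), Pltp stood at 17.8 and Apoc1 had the lowest mean (0.942), overlapping Apoe (2.06).

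Other LXR targets moved in both directions. Of 17 listed 14 were tested, with 5 higher, 4 lower and 5 not past the threshold. Among all tested genes 9.62% were higher and 9.95% lower. The list's median log2FC was 0.04, the same with Apoc4 at its bound. Scd1, which desaturates fatty acids, rose from 3.91 ± 0.894 to 12.4 ± 4.00 CPM (SD, n = 3; log2FC 1.71, SE 0.24, adjusted p 0.00331 in edgeR). Acaca, which makes malonyl-CoA for fatty acid synthesis, rose from 16.3 ± 0.874 to 33.9 ± 5.80 CPM (SD, n = 3; log2FC 1.01, SE 0.13, adjusted p 0.00244 in edgeR). The fatty acid synthase gene Fasn (log2FC 0.77), the lipoprotein lipase gene Lpl (0.52) and the ubiquitin ligase gene Rnf145 (0.52), named after their values were seen, rose as well.

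Among the targets that fell, Cd5l, a secreted macrophage protein, went from 4.08 ± 0.635 to 0.553 ± 0.485 CPM (SD, n = 3; log2FC -3.19, SE 0.45, adjusted p 0.00361 in edgeR). Its log2FC was -2.24 without AhRR-/- replicate 2, -3.96 without AhRR-/- replicate 3 and -2.15 with all libraries thinned to the smallest total, past the threshold each time. Beside it and Apoc4, Arl4c (log2FC -0.68), a small GTPase gene, and Smpdl3a (-0.43), a phosphodiesterase gene, fell, both named after their values were seen. Srebf1, the factor through which LXR drives fatty acid synthesis, had 61.9 to 71.0 CPM in wild-type and 56.2 to 73.3 CPM in AhRR-/- libraries and did not pass (log2FC -0.05, SE 0.11, adjusted p 0.763 in edgeR). Over the alternatives 3 to 6 genes of the list were higher and 1 to 5 lower. The higher genes numbered 3, 3 and 3 without wild-type replicate 1, 2 or 3 and 6, 4 and 3 without AhRR-/- replicate 1, 2 or 3, and the lower genes 2, 2 and 2 without wild-type replicate 1, 2 or 3 and 5, 3 and 2 without AhRR-/- replicate 1, 2 or 3.

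**Figure D5:**
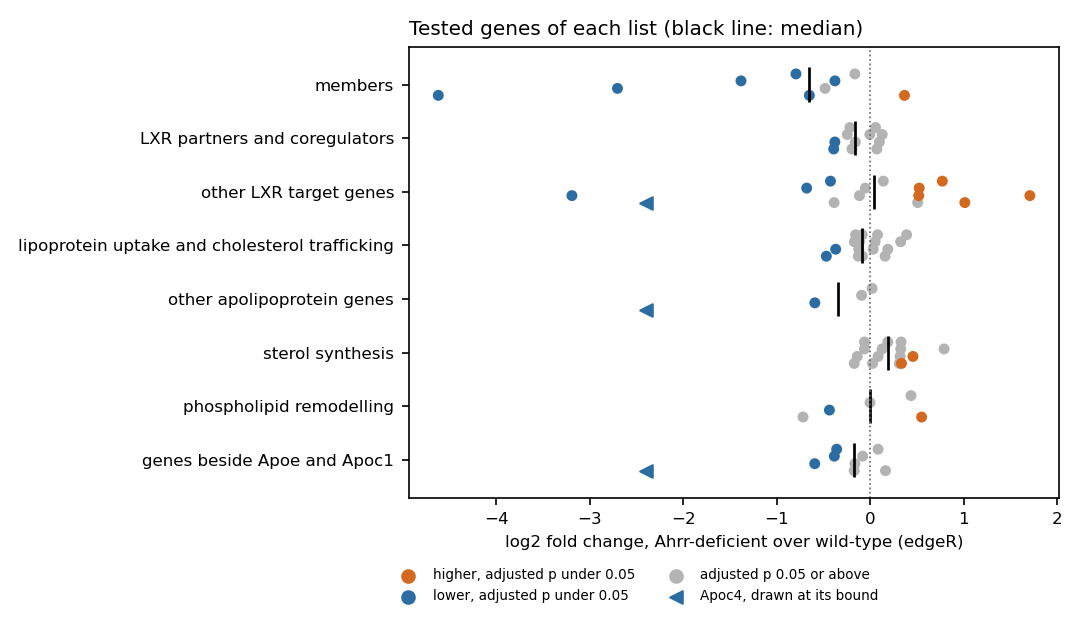
log2FC of the tested genes of each list, AhRR-/- over wild-type, from edgeR, 1 point per gene, with the list's median. Other LXR targets spread to both sides of 0, while uptake and trafficking genes lie between -0.47 and 0.39.

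Genes of lipoprotein uptake and cholesterol trafficking were read from a list as well. Of 16 tested 2 were lower and 0 higher, with a median log2FC of -0.09, where 19.6% of all tested genes passed. At an unadjusted p under 0.05 edgeR gave 2 lower and 1 higher, and DESeq2 gave 2 lower and 0 higher. The higher genes numbered 0, 0 and 0 without wild-type replicate 1, 2 or 3 and 2, 0 and 0 without AhRR-/- replicate 1, 2 or 3, and the lower genes 0, 1 and 1 without wild-type replicate 1, 2 or 3 and 2, 1 and 1 without AhRR-/- replicate 1, 2 or 3. With GC offsets 2 were higher and 1 lower. Gramd1a, which carries plasma membrane cholesterol to the endoplasmic reticulum, fell from 46.4 ± 4.71 to 35.0 ± 2.46 CPM (SD, n = 3; log2FC -0.47, SE 0.09, adjusted p 0.00964 in edgeR). Npc2, which moves cholesterol out of the lysosome, fell from 893 ± 46.0 to 727 ± 46.4 CPM (SD, n = 3; log2FC -0.37, SE 0.11, adjusted p 0.0437 in edgeR), a call kept in 6 of 16 alternatives.

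Sterol synthesis genes, which are switched on when cell sterol is low, were set beside the pathway. Of 15 tested 2 were higher and 0 lower, with a median log2FC of 0.19. Of all tested genes 9.62% were higher and 9.95% lower. At an unadjusted p under 0.05 edgeR gave 6 higher and 0 lower, and DESeq2 gave 1 higher and 0 lower after adjustment. The higher genes numbered 0, 1 and 0 without wild-type replicate 1, 2 or 3 and 6, 1 and 1 without AhRR-/- replicate 1, 2 or 3. Sc5d, a late enzyme of the pathway, rose (log2FC 0.33, SE 0.10, adjusted p 0.0450 in edgeR). Its log2FC was 0.20 to 0.39 over 16 alternatives, and the call was kept in 4 of them. Ch25h, whose enzyme makes the oxysterol 25-hydroxycholesterol, had 1.504, 0.159 and 1.401 CPM in wild-type replicates 1, 2 and 3 and 10.7, 86.3 and 46.2 CPM in the AhRR-/- replicates (log2FC 5.35, SE 0.74, adjusted p 0.00329 in edgeR). Its log2FC was 4.62 without AhRR-/- replicate 2 and 6.25 with thinning, the ends of its range over the alternatives, all past the threshold.

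The genes whose levels followed a member most closely were ranked, among tested genes with a mean of at least 50 counts, by Pearson's r of log2 CPM over the 6 libraries, which share the step between genotypes, so r is given as a description. Nearest to Apoc1 were Mef2d, Col11a2, Nagk, Cd37 and Fabp5 (r 0.998 to 0.9997). Their own falls were smaller than that of Apoc1, from log2FC -0.36 for Nagk to -1.34 for Col11a2. Nearest to Abca1 were Fam161a, Cenpv, Zwint, Trps1 and Mrm1 (r 0.981 to 0.997), and nearest to Apoe were Ndufb7, Cox6a1, Ercc2, Fkbp2 and Akt1s1 (r 0.990 to 0.999).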

How the data were processed

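Reads were processed by the submitters with CASAVA 1.8.2, fastp 0.20.0, STAR 2.7.10b, SAMtools 1.16.1, R 4.3.1 and DESeq2 1.40.2 on mm10, per the submitters' processing notes. The counting program, annotation and use of strand are not given in the sources used here. Libraries were made from 100 ng of RNA and read as single 75 base reads, per the labels' protocols. The authors deposited raw counts for 53465 features without identifiers, and a normalized signal for 16111 named genes. Multiplied by recomputed median-of-ratios size factors, 100% of the deposited signal values were whole reads (within 1e-06), and as a set they equalled the deposited counts of features with at least 10 counts in all. CPM are counts over the library total. Poisson intervals and floors of 3 counts cover counting error only.

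Counts were tested with edgeR 4.0.16 in R 4.3.3 (quasi-likelihood, TMM, filterByExpr, genotype as the only term, two-sided, Benjamini-Hochberg over 11408 genes, threshold 0.05). The procedure was tried on simulated counts with the same dispersion for every gene, which cannot show how it performs on these libraries. Standard errors are the fold change over the root of F, and approximate intervals are 1.96 SE. Positions, exon lengths and overlaps are from GENCODE release 21 on GRCm38, where 16094 of 16111 identifiers were found. Replicates differed by more than sampling noise (chi-square per degree of freedom 5.79 to 175). These values include CT010467.1, and the highest, 175 and 70.0, are the pairs that hold wild-type replicate 2. Alternatives were RLE and upper-quartile scaling, no filter, a mean of 50 counts, DESeq2 1.42.0, limma-voom (limma 3.58.1), a replicate block, GC offsets with and without the block, thinning to the smallest total, and each library left out. The members and lists were chosen with earlier results of these data known. Named are all members, at most 4 called genes with the largest change in each list, the 5 genes most like Apoc1, Apoe and Abca1 (mean of at least 50 counts), and Ahrr and Ch25h; others were chosen after their values were seen. Some genes that the rule names are not reported here.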

Additional observations from a re-analysis of the deposited data

How the results depend on the processing

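Of 428 fold changes recomputed for 27 named genes over up to 16 alternatives, 332 stayed in direction and call, 96 stayed in direction but lost the call, and 0 turned. Among the members, Apoc1, Pltp, Nr1h3 and Mylip were called in all 16. The number of members called lower was 4 to 6, and 4 without wild-type replicate 1, wild-type replicate 3 or AhRR-/- replicate 2. The number called higher was 1 (Abcg1), and 0 with RLE or upper-quartile scaling, no filter, a mean of at least 50 counts, thinning, and the replicate block with or without GC offsets. Leaving out 1 library gave 0 to 1. Of all genes 2232 passed, against 1243 with thinning to the smallest total and 694 to 3857 when 1 library was left out, the extremes being without wild-type replicate 1 and without AhRR-/- replicate 1. Upper-quartile scaling called 2234 genes, 41.8% of them higher, against 49.1%. The deviations of same-numbered libraries correlated at -0.17, 0.07 and 0.13 for numbers 1, 2 and 3, and 1 of the 3 numbers correlated best with itself. With 3 libraries in each group, these values cannot decide whether same-numbered libraries belong together. With the replicate block 1390 genes passed and 5 members were lower, and with GC offsets and the replicate block 1276 passed. The DR4 count was 1 with 3 mismatches and 0 with 2. For these changes the cause was not tested. The library of 3556106 counts limits genes under its floor of 0.844 CPM.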
